A study of Mus musculus with 12 samples.

Results

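Lymphocyte transcripts were measured in whole livers of septic mice through 9 genes, picked by symbol from the 25611 genes of the count table: 4 of the T cell receptor complex and its co-receptors (Cd3e, Cd3g, Cd8a and Cd4), 2 of cytotoxic granules (Nkg7 and Gzma) and 3 of the B cell receptor and B cell surface (Cd79a, Cd79b and Ms4a1). All 9 genes were found, each on 1 row of the table, and none was at 0 in all mice. The livers came from 12 male C57BL/6J mice aged 8 to 10 weeks, with 4 mice in each of 3 groups, and were collected 30 hr post-surgery. Sham mice had an abdominal incision without ligation or puncture of the cecum. CLP mice had cecal ligation and puncture, a surgical model in which gut contents leak into the abdomen and cause sepsis. CLP+DCA mice had the same procedure and received dichloroacetate (DCA), an inhibitor of pyruvate dehydrogenase kinases, at 25 mg/kg into the abdominal cavity 24 hr post-surgery, 6 hr before collection. Every mouse received saline under the skin. The sample labels say that mice were injected with their respective drugs. Whether sham and CLP mice thus received a vehicle at 24 hr is not given in the sources used here.

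T lymphocytes recognise antigen with a receptor whose signal passes through the CD3 chains, and the co-receptors CD4 and CD8 divide them into helper and cytotoxic cells. Cytotoxic T cells and natural killer (NK) cells, which are plentiful in the mouse liver, kill targets with granule proteases such as granzyme A. B lymphocytes carry surface immunoglobulin that signals through CD79A and CD79B. Loss of lymphocytes from blood and lymphoid organs is a known feature of sepsis.

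The reads on these genes were few. Between 24436513 and 44266819 reads were counted per mouse, and the 9 genes together took 82 to 145 of them in sham mice, 12 to 80 in CLP mice and 31 to 91 in CLP+DCA mice. In all 12 mice, the total of a gene ran from 26 reads for Cd8a to 200 for Cd79b, so that values are given as raw reads per mouse before any fold. Levels are also given as counts-per-million (CPM), the reads of a gene relative to the TMM-scaled size of its library. A gene with no read in a mouse may still have been present below the level of 3 reads, which was 0.0691 to 0.144 CPM depending on the library. Albumin, the main secreted protein of hepatocytes, had 320064 to 2137713 reads per mouse, as the tissue label implies. In whole tissue, fewer cells of a type and less RNA per cell cannot be told apart.

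Some libraries stood apart. CLP replicates 2 and 4 had the fewest reads on the 9 genes, 12 and 13, and the lowest TMM factors, 0.855 and 0.867. CLP+DCA replicate 3 had 31 reads on the 9 genes against 60 to 91 in the other CLP+DCA mice. Its summed level of 12 neutrophil genes was 65.8 CPM, against 6.74 to 15.2 CPM in the other CLP+DCA mice, 34.7 to 50.3 CPM in CLP and 6.78 to 9.82 CPM in sham. For each of the 9 genes a CLP+DCA value is therefore also given without that mouse. It was picked partly for its few reads on these genes, so higher CLP+DCA levels without it follow in part from that choice. Calls gained without it are given as a description.

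The means of the 4 T cell genes were low in CLP and near the sham levels in CLP+DCA, whereas the 3 B cell genes were low in both septic groups. In a fit without a filter on low counts, all 9 genes had lower means in CLP than in sham, and the pooled reads of the 4 T cell genes, scaled by depth, were 0.318 to 0.584 times those of sham. The highest of these ratios was that of Cd3e, whose counting interval of 0.296 to 1.11 includes 1, as does that of Cd8a. In CLP+DCA the pooled reads of Cd79a and Cd79b were 0.299 and 0.322 times those of sham, with counting intervals of 0.172 to 0.497 and 0.215 to 0.471, while those of Cd4 were 0.962 times. None of these differences passed the FDR of 0.05 over all genes with edgeR's quasi-likelihood test on the 12 mice. Other settings called Cd3g, Cd4, Cd79a or Cd79b in some comparisons, as given with each gene. Longer lists did not share the pattern in full. In CLP versus sham, 24 further T cell genes gave 12 lower and 12 higher. In CLP+DCA versus sham, 22 further B cell genes gave 16 lower and 6 higher. The 11 of these that passed a filter on low counts gave 5 lower and 6 higher.

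**Figure D1:**
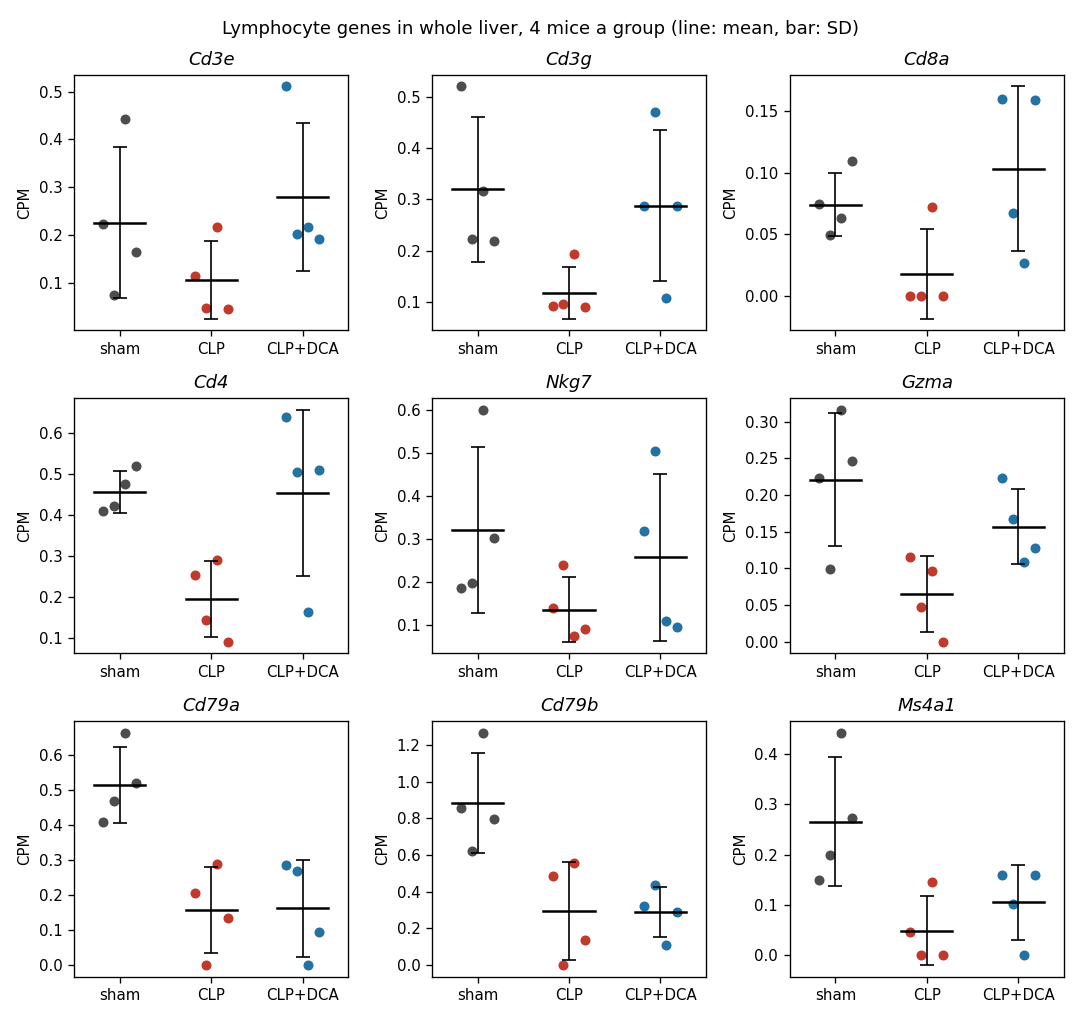
Level of each of the 9 genes in CPM (y axis, linear) in sham, CLP and CLP+DCA, with 1 point per mouse in replicate order, a line at the mean and a bar for the SD of 4 mice. Every CLP mouse lies below every sham mouse for Cd3g, Cd4, Cd79a, Cd79b and Ms4a1, and every CLP+DCA mouse lies below every sham mouse for Cd79a and Cd79b.

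CD4, the co-receptor of helper T cells that is also found on some mouse dendritic cells, was the most read T cell gene. Cd4 (chromosome 6, 124864693 to 124888209, minus strand, mm10) had 11, 17, 15 and 19 reads in the sham mice, 11, 3, 12 and 2 in CLP, and 20, 15, 6 and 16 in CLP+DCA. Its level was 0.456 ± 0.0511 CPM in sham mice, 0.194 ± 0.0934 in CLP mice and 0.454 ± 0.204 in CLP+DCA (mean ± SD, n = 4 each). Sham and CLP did not overlap, and only CLP+DCA replicate 3, at 0.163 CPM, lay within the CLP range. The log2 fold change was -1.13 (SE 0.43) in CLP versus sham, with an FDR of 0.118 by edgeR, and 1.10 (SE 0.43) in CLP+DCA versus CLP, with an FDR of 0.437. Without CLP+DCA replicate 3, Cd4 passed the test in both, at -1.11 (SE 0.33, edgeR FDR 0.0307) and 1.38 (SE 0.34, edgeR FDR 0.0447). It also passed in both with voom and sample weights, at -1.11 (FDR 0.0330) and 1.47 (FDR 0.0269). With CLP replicate 4 left out instead, edgeR called Cd4 in neither, at -0.93 (SE 0.43, FDR 0.236) and 0.91 (SE 0.43, FDR 0.724). Against sham, CLP+DCA gave -0.02 (SE 0.39), and the pooled reads a ratio of 0.962 with a 95% counting interval of 0.659 to 1.40.

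CD3γ and CD3ε are signalling chains of the T cell receptor complex. Cd3g (chromosome 9, 44969572 to 44980431, minus strand) had 14, 9, 10 and 8 reads in sham, 4, 2, 8 and 2 in CLP, and 9, 14, 4 and 9 in CLP+DCA, or 0.320 ± 0.141, 0.118 ± 0.0505 and 0.288 ± 0.148 CPM (SD, n = 4). CLP lay below sham in all mice, with CLP replicate 3 highest among the CLP mice. Cd3e (chromosome 9, 44998743 to 45009590, minus strand) had 6, 3, 14 and 6 reads in sham, 5, 1, 9 and 1 in CLP, and 16, 6, 8 and 6 in CLP+DCA, or 0.226 ± 0.157, 0.106 ± 0.0809 and 0.280 ± 0.154 CPM. Its groups overlapped in every comparison, with sham mice from 0.0743 to 0.443 CPM. Both genes failed the low-count filter. Without the filter, CLP versus sham was -1.36 (SE 0.51, edgeR FDR 0.145) for Cd3g and -0.93 (SE 0.64, edgeR FDR 0.383) for Cd3e, on the log2 scale. Without CLP+DCA replicate 3, Cd3g passed the filter and was called in CLP versus sham (-1.31, SE 0.43, edgeR FDR 0.0468), and its level in the other CLP+DCA mice was 0.348 ± 0.106 CPM (SD, n = 3). That of Cd3e was 0.301 ± 0.182 CPM.

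CD8α, the co-receptor of cytotoxic T cells that some dendritic and NK-lineage cells also carry, was near the limit of detection. Cd8a (chromosome 6, 71373427 to 71379171, plus strand) had 2, 2, 2 and 4 reads in sham, 5, 2, 1 and 5 in CLP+DCA, and 3 in CLP replicate 3 with 0 in the other CLP mice. The 3 reads of CLP against 10 of sham gave a ratio of 0.318 with a counting interval of 0.0562 to 1.23, and a difference was not detectable at this depth. CLP+DCA against CLP, with 13 and 3 reads, gave 4.28 with an interval of 1.18 to 23.4. Across mice these 2 groups overlapped, and edgeR without the filter gave a log2 fold change of 2.02 (SE 0.92, FDR 0.538). In CLP versus sham it gave -1.59 (SE 0.95, FDR 0.322). The CLP+DCA level of Cd8a was 0.103 ± 0.0668 CPM in 4 mice and 0.129 ± 0.0532 CPM without replicate 3. Intervals of pooled reads cover counting error only, not the spread between mice.

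The granule genes had lower means in CLP than in both other groups. Gzma, granzyme A (chromosome 13, 113093827 to 113100981, minus strand), had 6, 4, 10 and 9 reads in sham, 5, 1, 4 and 0 in CLP, and 7, 5, 4 and 4 in CLP+DCA. Nkg7, a granule membrane protein of NK and cytotoxic T cells (chromosome 7, 43437138 to 43438246, plus strand), had 5, 8, 19 and 11 reads in sham, 6, 5, 3 and 2 in CLP, and 10, 15, 4 and 3 in CLP+DCA. For both, 1 CLP mouse lay within the sham range. The unfiltered log2 fold change in CLP versus sham was -1.56 (SE 0.60, edgeR FDR 0.155) for Gzma and -1.29 (SE 0.63, edgeR FDR 0.238) for Nkg7. In CLP+DCA versus sham it was -0.49 (SE 0.56) and -0.34 (SE 0.59). Without CLP+DCA replicate 3, Nkg7 passed the filter and was at -0.07 (SE 0.56), and Gzma was at 0.173 ± 0.0483 CPM against 0.157 ± 0.0510 CPM in all 4 CLP+DCA mice.

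Of the B cell genes, Cd79b had the most reads. Cd79b (chromosome 11, 106311341 to 106314562, minus strand) had 23, 25, 40 and 29 reads in sham, 21, 0, 23 and 3 in CLP, and 10, 13, 4 and 9 in CLP+DCA, or 0.884 ± 0.274, 0.294 ± 0.269 and 0.288 ± 0.136 CPM (SD, n = 4). The CLP mice were spread from 0 to 0.556 CPM, while the CLP+DCA mice lay between 0.108 and 0.437 CPM, and both groups lay wholly below sham, whose lowest mouse was at 0.619 CPM. The log2 fold change was -1.43 (SE 0.61, edgeR FDR 0.153) in CLP versus sham, -1.62 (SE 0.62, edgeR FDR 0.321) in CLP+DCA versus sham and -0.19 (SE 0.66, edgeR FDR 0.935) in CLP+DCA versus CLP. The sign of the last depended on the setting. DESeq2 on the 8 mice compared called Cd79b in CLP+DCA versus sham (-1.64, SE 0.46, FDR 0.0374). There, edgeR gave -1.33 (SE 0.60, FDR 0.528) without CLP+DCA replicate 3.

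CD79A is the partner of CD79B in the B cell receptor. Cd79a (chromosome 7, 24897511 to 24902197, plus strand) had 11, 19, 21 and 19 reads in sham, 9, 0, 12 and 3 in CLP, and 9, 8, 0 and 3 in CLP+DCA, or 0.516 ± 0.109, 0.158 ± 0.123 and 0.163 ± 0.139 CPM. CLP replicate 2 and CLP+DCA replicate 3 had no read, and all 8 septic mice lay below all sham mice. The log2 fold change was -1.54 (SE 0.69, edgeR FDR 0.169) in CLP versus sham and -1.68 (SE 0.70, edgeR FDR 0.350) in CLP+DCA versus sham. Without CLP+DCA replicate 3 these were -1.52 (SE 0.51, edgeR FDR 0.0484) and -1.24 (SE 0.54, edgeR FDR 0.515), and the first passed the test. DESeq2 on the 8 mice of CLP versus sham called Cd79a as well (-1.59, SE 0.59, FDR 0.0360). Both comparisons share the sham mice, and the difference between them, CLP+DCA versus CLP, was -0.14 (SE 0.77, edgeR FDR 0.962).

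CD20, the product of Ms4a1, is a membrane protein of mature B cells. Ms4a1 (chromosome 19, 11250603 to 11266151, minus strand) had 4, 8, 14 and 10 reads in sham, 2, 0, 6 and 0 in CLP, and 5, 3, 0 and 5 in CLP+DCA. Its CLP mice lay below all sham mice, at 0.0478 ± 0.0684 against 0.266 ± 0.129 CPM, while the CLP+DCA mice, at 0.105 ± 0.0752 CPM, or 0.140 ± 0.0338 CPM without replicate 3, overlapped with sham. Ms4a1 overlaps 4930526L06Rik in the GENCODE M21 annotation. The strand setting of the read counting is not given in the sources used here, and reads from the overlap cannot be assigned to either gene without it.

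These counts were read against all genes of the table. Sham and CLP did not overlap for 5 of the 9 genes, all lower in CLP, and this held for 10.3% of all 18842 genes with a read. CLP+DCA lay wholly below sham for 2 genes, against 3.74% of all genes. No gene separated CLP+DCA from CLP, where 1.81% of all genes were wholly higher. Without CLP+DCA replicate 3, Cd3g, Cd4 and Gzma were wholly higher in CLP+DCA than in CLP, and so were 9.29% of all genes.

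Of the 3 genes that passed the low-count filter (Cd4, Cd79a and Cd79b), 0 were called at an FDR of 0.05 in CLP versus sham, where edgeR called 2.78% of 13190 genes. All 3 had an unadjusted edgeR p under 0.05 there, all lower, against 13.1% of genes. For CLP+DCA versus sham, 0 of 3 were called, with 0.0379% of genes called, and Cd79a and Cd79b had an unadjusted edgeR p under 0.05, against 4.85% of genes lower. For CLP+DCA versus CLP, 0 of 3 were called, with 0.00758% of genes called, and Cd4 had an unadjusted edgeR p under 0.05, against 5.06% of genes higher.

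Settings that called any of these genes also called many others. DESeq2 on the 8 mice compared called 1 of the 9 genes lower in CLP versus sham and 1 in CLP+DCA versus sham, beside 11.5% and 0.468% of genes. Voom called Cd4 lower in CLP versus sham and higher in CLP+DCA versus CLP, beside 12.9% and 4.65% of genes. Without CLP+DCA replicate 3, edgeR called Cd3g, Cd4 and Cd79a of 5 genes tested lower in CLP versus sham and Cd4 higher in CLP+DCA versus CLP, beside 11.5% and 2.01% of 13288 genes. A two-sided exact permutation test of log2 CPM gave p = 0.0286, the smallest that 4 against 4 mice allow, for the 7 cases without overlap, with an adjusted p of 0.110 over 27 tests. The smallest of the other p-values in this exact test was 0.0571.

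Across the 9 genes, the median log2 fold change without a filter was -1.48 in CLP versus sham, -0.34 in CLP+DCA versus sham and 1.07 in CLP+DCA versus CLP, where the medians of all 18842 genes were 0.04, 0.00 and 0.00. CLP versus sham gave 9 lower genes of 9, between -2.16 and -0.93, where 44.4% of all genes lay below 0. CLP+DCA versus sham gave 7 lower and 2 higher genes, the 2 being Cd3e and Cd8a, where 46.0% of all genes lay below 0. CLP+DCA versus CLP gave 7 higher and 2 lower genes, the 2 being Cd79a and Cd79b, where 50.2% of all genes lay below 0. The 3 comparisons share mice, so that these counts are not independent of each other.

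**Figure D2:**
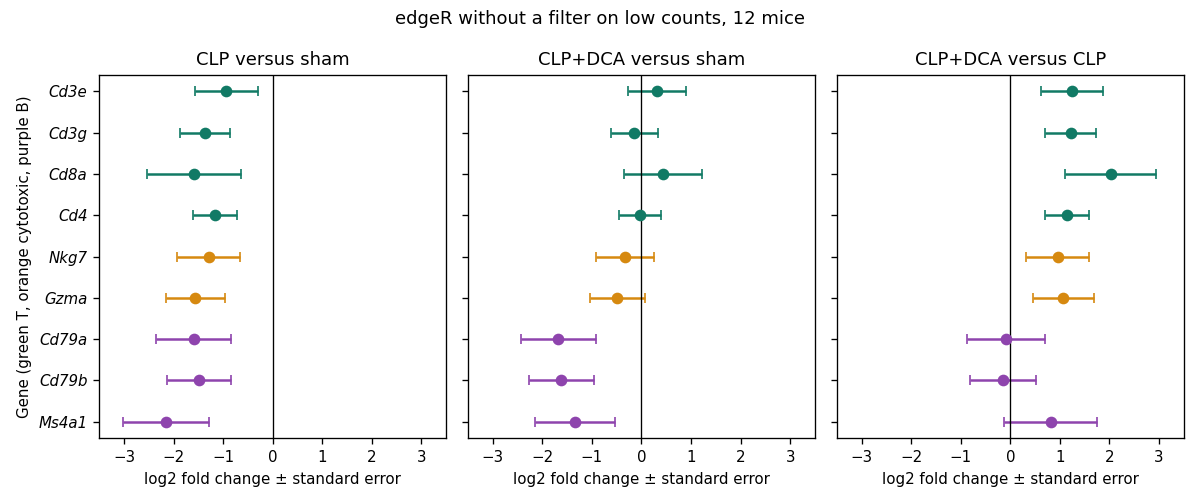
log2 fold change ± standard error (x axis) of the 9 genes (y axis) in the 3 comparisons, from edgeR without a filter on low counts over 12 mice, with T cell genes in green, cytotoxic genes in orange and B cell genes in purple. All 9 points lie below 0 in CLP versus sham, and in CLP+DCA versus sham the 3 B cell genes lie at -1.35 to -1.68 while the T cell genes lie between -0.15 and 0.44.

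Between genes, levels were compared per length of exon (CPM divided by exon length in kilobases, RPKM, with union exons of GENCODE M21). In sham, Cd79b was highest at 0.617 ± 0.192 RPKM, followed by Cd79a at 0.354 ± 0.0748 and Nkg7 at 0.352 ± 0.212, and Cd8a was lowest at 0.0204 ± 0.00704. In CLP+DCA, Nkg7 came first at 0.281 ± 0.213 RPKM, followed by Cd79b at 0.201 ± 0.0950, while Cd79a, at 0.112 ± 0.0953, came behind Gzma and Cd4. Neighbours in the order overlapped in range in all 3 groups, except Cd3e and Cd8a in CLP+DCA. The order therefore separates only genes that lie far apart in it.

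The balance of B to T cell reads, with depth cancelled, set CLP+DCA apart from sham. Of the reads on the 3 B and 4 T cell genes, 53.5, 62.7, 64.7 and 61.1% were B cell reads in sham replicates 1 to 4. In CLP+DCA the shares were 32.4, 39.3, 17.4 and 32.1%, all below all sham mice. CLP gave 61.5, 0, 56.2 and 54.5%, where the 0 stands for 0 of 6 reads in replicate 2, with an exact binomial interval of 0 to 45.9%. CLP+DCA stayed wholly below sham with any 1 of the 7 genes left out, with the highest CLP+DCA and lowest sham mouse closest, at 22.9% and 31.3%, without Cd79b, and next at 52.2% and 63.3% without Cd4. The shares are described without a test, because the genes were grouped with earlier results known. In summed level, the T cell genes were at 1.08 ± 0.239 CPM in sham mice, 0.437 ± 0.246 in CLP mice and 1.12 ± 0.451 in CLP+DCA, and the B cell genes at 1.67 ± 0.488, 0.4995 ± 0.448 and 0.556 ± 0.320 (SD, n = 4).

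**Figure D3:**
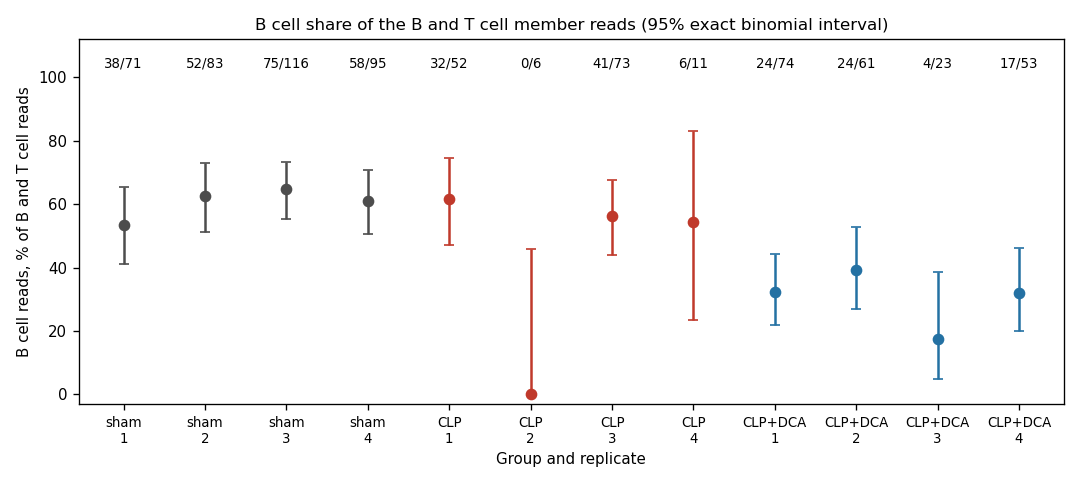
Share of B cell reads (y axis, percent) among the reads on 3 B and 4 T cell genes in each mouse (x axis, group and replicate), with B and total reads printed above and 95% exact binomial intervals as bars. The 4 CLP+DCA mice lie between 17.4 and 39.3%, below the 53.5 to 64.7% of sham, and the interval of CLP replicate 2 spans 0 to 45.9%.

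Promoters of a T and a B cell gene are shown because their mean levels parted in CLP+DCA: both were low in CLP, and Cd3g but not Cd79a was near the sham level after DCA. The pair was picked by these values, and neither a difference between the genes nor a part of the promoter in it was tested. The windows are the 250 bases before the gene start, from RefSeq on GRCm38.p6, chr9:44980432-44980681 on the minus strand for Cd3g and chr7:24897247-24897496 on the plus strand for Cd79a. Capitals mark GGAA, the core bound by ETS-family factors, which act in both lineages, or TTCC, its reverse complement.
Cd3g: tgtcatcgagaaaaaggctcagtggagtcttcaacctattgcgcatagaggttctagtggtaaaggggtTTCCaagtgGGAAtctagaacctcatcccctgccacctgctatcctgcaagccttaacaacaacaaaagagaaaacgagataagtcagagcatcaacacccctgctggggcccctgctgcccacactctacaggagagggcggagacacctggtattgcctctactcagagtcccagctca
Cd79a: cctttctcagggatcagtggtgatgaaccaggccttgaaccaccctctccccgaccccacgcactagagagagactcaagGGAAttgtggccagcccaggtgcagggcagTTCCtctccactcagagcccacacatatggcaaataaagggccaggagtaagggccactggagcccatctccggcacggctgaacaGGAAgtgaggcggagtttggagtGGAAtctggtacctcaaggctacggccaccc
GGAA was found on either strand 2 times in the Cd3g window and 4 times in that of Cd79a, and 93.5% of all 32851 windows hold it. The E-box CANNTG, bound by E proteins of both lineages, was found 3 times for Cd3g and 2 times for Cd79a, against 66.2% of all windows, and the octamer ATGCAAAT in neither, against 1.60%. CANNTG is its own reverse complement, and each motif was searched on both strands by itself, so that hits of different motifs may overlap. Windows were at hand for 6 of the 9 genes (Cd3e, Cd3g, Cd8a, Nkg7, Gzma and Cd79a).

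Further genes of NK, T and B cells were taken from 3 lists. NK and cytotoxic genes, 22 of 23 with a read, were lower in CLP than in sham for 19 and higher for 2, with a median log2 fold change of -0.79. After DCA, 21 of the 22 were higher than in CLP, with a median of 0.91. None of the 6 that passed the filter was called by edgeR, with 2 lower in CLP versus sham at an unadjusted p under 0.05, and DESeq2 on 8 mice called 1 and voom 2. Klrk1, the activating receptor NKG2D of NK and T cells, had 17, 19, 21 and 20 reads in sham, 11, 5, 10 and 3 in CLP, and 30, 29, 11 and 14 in CLP+DCA. Its CLP mice lay below all mice of both other groups, at -1.36 (SE 0.40, edgeR FDR 0.0734) in CLP versus sham and 1.57 (SE 0.40, edgeR FDR 0.255) in CLP+DCA versus CLP. Ctsw, a cathepsin of cytotoxic cells, had 11, 10, 14 and 19 reads in sham and 10, 3, 7 and 2 in CLP (-1.26, SE 0.38, edgeR FDR 0.0756).

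The 24 further T cell genes split evenly in CLP versus sham, with 12 lower and 12 higher and a median of -0.01, and 0 of the 11 that passed the filter were called by edgeR, with 4 higher and 3 lower at an unadjusted p under 0.05. DESeq2 on 8 mice called 2 higher and 2 lower, and voom 2 higher and 3 lower. In CLP+DCA versus CLP, 17 of the 24 were higher and 7 lower, with a median of 0.24, where 50.2% of all genes lay below 0. Of the 24, 4 were wholly higher there, against 1.81% of all genes, and edgeR called 0 of the 11. Lck, the kinase that starts T cell receptor signalling, had 16, 23, 22 and 20 reads in sham, 13, 7, 17 and 7 in CLP, and 23, 16, 17 and 19 in CLP+DCA. Its level was 0.602 ± 0.0659, 0.340 ± 0.0496 and 0.584 ± 0.116 CPM, with CLP below every mouse of both other groups (-0.81, SE 0.23, edgeR FDR 0.0702 in CLP versus sham). Cd28, the costimulatory receptor of T cells, went the opposite way, with 3, 3, 3 and 7 reads in sham, 54, 674, 111 and 353 in CLP, and 19, 9, 639 and 5 in CLP+DCA (6.72, SE 1.81, edgeR FDR 0.0630 in CLP versus sham). Trat1, an adaptor of the T cell receptor named after its values were seen, had 2, 2, 1 and 3 reads in sham, 13, 242, 46 and 63 in CLP, and 1, 3, 498 and 5 in CLP+DCA. Both were highest in CLP replicate 2 and CLP+DCA replicate 3, a pair that had 6 and 19 reads on the 4 T cell receptor and co-receptor genes.

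B cell genes were lower in CLP for 17 of 22, with a median of -0.70, and lower in CLP+DCA than in sham for 16 of 22, with a median of -0.26. Of the 11 that passed the filter, edgeR called 1 lower and 1 higher in CLP versus sham. At an unadjusted edgeR p under 0.05, 2 were lower and 2 higher there. In CLP+DCA versus sham these 11 did not lean lower, with 6 higher and 5 lower and a median of 0.015. There, 2 were higher and 0 lower at an unadjusted edgeR p under 0.05. Blnk, the adaptor below the B cell receptor that some myeloid cells also express, fell, with 26, 57, 33 and 31 reads in sham, 16, 5, 13 and 6 in CLP, and 30, 31, 11 and 42 in CLP+DCA (-1.80, SE 0.40, edgeR FDR 0.0432). Against sham, CLP+DCA was at -0.24 (SE 0.36) for Blnk. Ly6d, a surface marker of B lineage cells and some epithelia, rose in CLP (2.19, SE 0.52, edgeR FDR 0.0486), with 9 to 40 reads in sham and 39 to 137 in CLP. Ralgps2 took 63.9% of the reads of the list, so that its sum is not a measure of B cells. Fcer2a, the low-affinity IgE receptor CD23 of mature B cells, was named after its values were seen: it had 12, 7, 9 and 11 reads in sham, 3, 0, 5 and 0 in CLP, and 1, 2, 1 and 4 in CLP+DCA, with both septic groups wholly below sham.

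**Figure D4:**
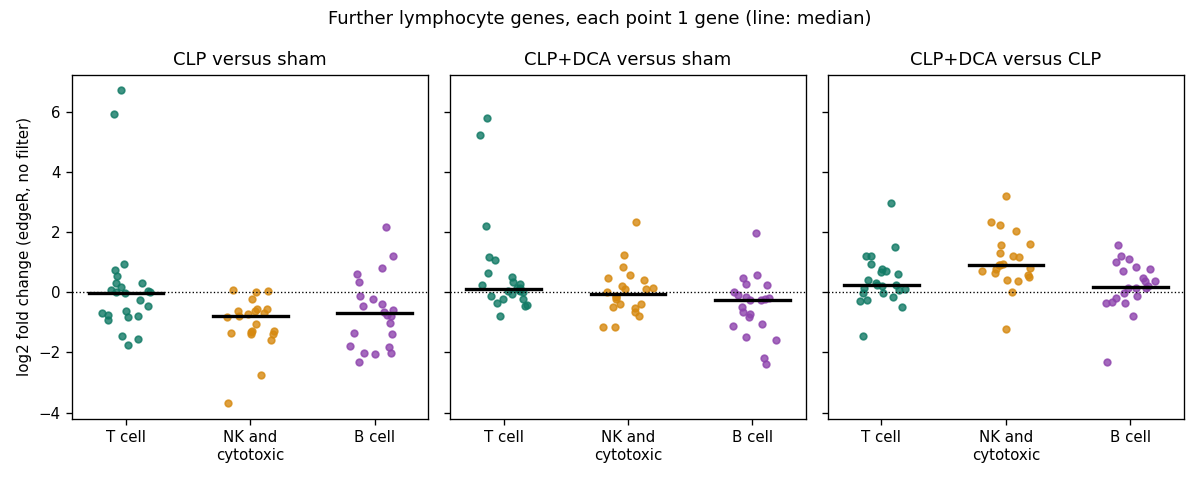
log2 fold change (y axis, edgeR without a filter on low counts) of further T cell, NK and cytotoxic, and B cell genes, 1 point per gene with a line at the median, in the 3 comparisons. NK and cytotoxic genes have a median of -0.79 in CLP versus sham and 0.91 in CLP+DCA versus CLP, and the 2 T cell genes at the top of CLP versus sham are Cd28 and Trat1.

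Plasma cell, regulatory and homing genes were taken from 3 further lists. None of the plasma cell genes was called by edgeR. Jchain, which joins immunoglobulin units, had 12 to 25 reads in sham, 1 to 23 in CLP and 14 to 24 in CLP+DCA. Fkbp11, a folding enzyme of secretory cells, was the 1 plasma cell gene with an unadjusted edgeR p under 0.05 in CLP versus sham (1.96, SE 0.59, FDR 0.0756), and DESeq2 on 8 mice and voom each called 1 gene of the list, higher. Of the regulatory and checkpoint genes, 0 were called in CLP versus sham by edgeR, DESeq2 or voom, and 0 had an unadjusted edgeR p under 0.05, with Icos at -0.37 (SE 0.48) and Tnfrsf18 at 0.23 (SE 0.30). Of 15 homing and residency genes, Itga4, the α4 integrin of leukocytes, rose in CLP (2.31, SE 0.49, edgeR FDR 0.0406). Zbtb16, the factor PLZF of innate-like T cells, which other liver cells also express, rose as well (1.69, SE 0.37, edgeR FDR 0.0417) and was also wholly above sham in CLP+DCA (1.77, SE 0.37, edgeR FDR 0.162).

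Signals that act on lymphocytes changed in CLP in both directions. Cxcl13, the chemokine that attracts B cells to follicles, rose from 30, 24, 85 and 18 reads in sham to 934, 966, 570 and 649 in CLP (4.52, SE 0.82, edgeR FDR 0.0275), and had 256, 409, 944 and 46 in CLP+DCA. Il18, a cytokine that activates NK and T cells, fell (-0.91, SE 0.19, edgeR FDR 0.0412). Of 10 genes of cell death and survival, 7 were lower in CLP, with a median of -0.26, and edgeR called 1 higher and 1 lower. The 1 that rose was Fas, the death receptor (0.79, SE 0.14, edgeR FDR 0.0254). Il18 was also wholly below sham in CLP+DCA, at -0.66 (SE 0.19, edgeR FDR 0.269).

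Summed markers of other cells also differed between the groups. The sum of 12 pan-leukocyte genes was higher in CLP, at 79.0 ± 4.36 CPM, than in sham, at 63.3 ± 8.71 CPM, and reached 80.3 ± 13.1 CPM in CLP+DCA, with Arhgdib called in CLP (0.84, SE 0.19, edgeR FDR 0.0432). Of 7 monocyte genes, 7 were higher in CLP and 2 were called, Itgam among them (3.42, SE 0.81, edgeR FDR 0.0482), and their sum was 5.40 to 7.95 CPM in sham, 20.6 to 30.8 in CLP and 7.86 to 45.2 in CLP+DCA. Of 12 neutrophil genes, 11 were higher in CLP and 2 were called. The 10 hepatocyte genes summed to 68980 to 87810 CPM in sham, 32120 to 49780 in CLP and 28520 to 62870 in CLP+DCA, with 9 of 10 lower in CLP.

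Dendritic cell genes, 7 of 9 lower in CLP, summed to 97.9 to 116.7 CPM in sham, 31.7 to 63.5 in CLP and 41.6 to 123 in CLP+DCA, of which Bst2 alone took 91.6%. The 11 Kupffer cell genes, at 212 to 353, 329 to 420 and 272 to 530 CPM, overlapped. The sums of sinusoidal endothelium (134 to 172, 140 to 183 and 129 to 182 CPM) and of stellate cells (84.2 to 138, 124 to 215 and 108 to 252 CPM) overlapped too. Cholangiocyte genes summed to 34.7 to 44.2 CPM in sham, 62.4 to 96.5 in CLP and 38.8 to 214 in CLP+DCA, and Spp1 took 70.3% of their reads. Erythroid and platelet genes summed to 79.4 to 88.1, 35.2 to 59.1 and 26.2 to 85.3 CPM. Alas2 alone took 98.0% of the reads of that list, so its sum is not a measure of these cells. Of its 4 genes with a read, 3 were higher and 1 lower in CLP than in sham. The part of these other cell types in the lymphocyte values was not tested. Tnfrsf17, Klra4, Hbb-bs and Hbb-bt had no read in any mouse. The annotation and settings of the read counting are not given in full, so this does not show that their transcripts were absent.

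**Figure D5:**
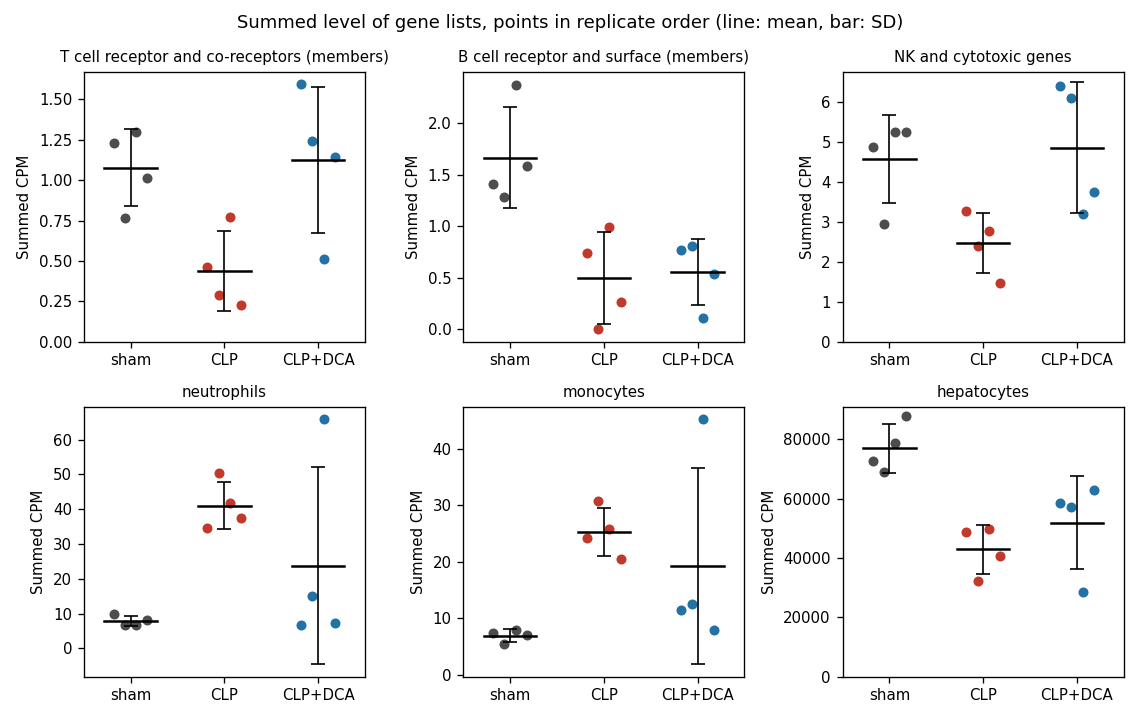
Summed level (y axes, CPM, linear) of the T and B cell members, of further NK and cytotoxic genes, and of neutrophil, monocyte and hepatocyte genes, with 1 point per mouse in replicate order, a line at the mean and a bar for the SD of 4 mice. CLP+DCA replicate 3, the third point of its group, has the highest neutrophil sum of all mice, 65.8 CPM, and the lowest B cell sum of its group, 0.108 CPM.

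Outside all these lists, the genes whose log2 CPM tracked the mean of the T cell and cytotoxic genes most closely over the 12 mice were Pdcd2 (Pearson r = 0.962), U2af1 (0.957), Cd74 (0.955), Tm2d3 (0.942) and H2-Aa (0.940). Cd74 and H2-Aa belong to the MHC class II pathway, by which dendritic cells, macrophages and B cells present antigen to CD4 T cells. For the B cell genes these were Ccl27a (0.970), Cnbp (0.970), Atp23 (0.964), Parp6 (0.963) and Csrp2 (0.963). They were the highest of 13024 genes ranked, and the 12 mice share 3 group means and the same libraries, so that the values are given as a description.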

How the data were processed

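RNA of 12 whole livers was measured, 4 per group, each mouse being 1 replicate under the group of its label. The authors prepared poly(A)-selected libraries, used STAR 2.5 to place paired reads on mm10, and took gene-level counts from featureCounts (Subread 1.5.0-p1). They deposited unnormalized counts for 25611 genes. The annotation and strand setting are not given in the sources used here. Depth was 24436513 to 44266819 reads per mouse, without molecular identifiers, so that intervals cover counting error only.

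Counts were filtered with filterByExpr (minimum count 10), leaving 13190 genes, and TMM-normalized. A robust edgeR 4.0.16 quasi-likelihood model of all 12 mice in R 4.3.3 gave 3 contrasts at a Benjamini-Hochberg FDR of 0.05. Members that failed the filter come from the same fit on all 18842 genes with a read. Single genes were compared by two-sided exact permutation of log2 CPM (prior count 2). Ratios of pooled reads carry 95% exact intervals. Scripts were tested on simulated data.

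Named are the 9 members; from each lymphocyte list the called genes, or otherwise the 2 with the smallest p in CLP versus sham; from other cell types the most read gene where a result turns on it, and genes at 0. Cell lists were written from general knowledge, and 4 listed symbols that stand on several rows were left out. The gene of the cell death and survival list that fell in CLP is not reported here. The members and lists were chosen with earlier results of these data known. Alternatives were DESeq2 1.42.0, edgeR on the 8 mice compared, RLE or library size alone, no filter, voom (limma 3.58.1) with sample weights, the replicate number as a block and leaving out each mouse.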

Additional observations from a re-analysis of the deposited data

Results flagged for a closer look

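In 30 groups of 4 mice (9 genes and the B cell share, in 3 groups each), the gap of the highest or lowest mouse to the nearest other mouse was divided by the range of the group. Genes were taken in log2 CPM and the share in percent. The ratio was compared with Dixon's 95% critical value for 4 values. For normally distributed values chance passes that value in about 1 in 20 groups, which need not hold for counts near 0. In 4 groups the critical value was passed. Cd3e in CLP+DCA gave 0.881, with replicate 1 (16 reads) above the other mice (6 to 8 reads). Cd3g in CLP gave 0.926, with replicate 3 (8 reads) above the others. Cd8a in CLP gave 1.0, since replicate 3 alone had reads (3). The B cell share in CLP gave 0.886, where replicate 2 had 0 of 6 reads. Each of the last 3 rests on 8 or fewer reads in a mouse.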

How the results depend on the processing

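In CLP versus sham, 0 of the 9 genes were called by edgeR on 12 mice. DESeq2 on the 8 mice compared called 1 (Cd79a, FDR 0.0360), voom 1 (Cd4, FDR 0.0330), and leaving out 1 mouse gave 0 to 3. The 3, without CLP+DCA replicate 3, were Cd3g, Cd4 and Cd79a. In CLP+DCA versus sham, DESeq2 on 8 mice called 1 (Cd79b, FDR 0.0374), and leaving out a mouse 0. In CLP+DCA versus CLP, voom called 1 (Cd4, FDR 0.0269), and leaving out a mouse 0 to 1, the 1 being Cd4 without CLP+DCA replicate 3. DESeq2 on all 12 mice called 0 in all 3 comparisons. So did edgeR on the 8 mice compared, with RLE, with library size alone and with no filter. With the filter, these edgeR settings tested 1 to 3 of the 9 genes.

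Over all genes, the 367 calls in CLP versus sham became 3428 with DESeq2 on 8 mice, 1894 with DESeq2 on 12 mice, 2387 with edgeR on 8 mice, 3417 with voom, 209 with library size alone, 122 without a filter, 46 with the replicate block and 10 to 3157 without 1 mouse (3157 without CLP+DCA replicate 3). With library size alone 52.2% of them were lower, against 41.1% with TMM, and the median of all genes moved from 0.02 to -0.15. The 5 calls in CLP+DCA versus sham became 169, 247, 0, 473, 3, 6, 0 and 1 to 11 in the same order, and the 1 in CLP+DCA versus CLP became 80, 136, 0, 1287, 1, 1, 4 and 0 to 616. The cause was not tested.

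Small differences changed sign. In CLP+DCA versus sham, without 1 mouse, the log2 fold change of Cd3g ran from -0.28 to 0.15 and that of Cd4 from -0.24 to 0.27 (0.36 with voom). In CLP+DCA versus CLP, that of Cd79a ran from -0.58 to 0.28 (0.54 with voom) and that of Cd79b from -0.52 to 0.23 (0.29 with voom, 0.0199 with the replicate block). The log2 CPM difference without 1 mouse ran from -0.41 to 0.14 for Cd3g and from -0.31 to 0.24 for Cd4 in CLP+DCA versus sham, and in CLP+DCA versus CLP from -0.54 to 0.52 for Cd79a (0.0566 with library size alone) and from -0.31 to 0.80 for Cd79b. The fitted log2 fold change of each of the 9 genes in CLP versus sham was below 0 in every setting that gave one. Cd3e, Cd8a, Gzma and Ms4a1 had no fitted value in any fit without 1 mouse, and Cd3g and Nkg7 had a value in only some of them. For Cd3e, Cd8a, Gzma and Ms4a1, the log2 CPM difference without 1 mouse was below 0 in each case.

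Replicate numbers gave no visible pairing of the mice: of 12 same-number pairs, 1 correlated above 0.1 (-0.46 to 0.55). Mice of different number also correlated, up to 0.70 for CLP replicate 2 with CLP+DCA replicate 3. A weaker pairing could be hidden by this, so the check cannot exclude one. The replicate block called none of the 9 genes. With a mouse left out, exact permutation of 4 against 3 mice cannot go below p = 0.0571, and sign flips within the replicate block not below p = 0.125, so that neither bears on stability. Depth limits the values: 6 of the 9 genes failed the low-count filter, and Cd8a had 26 reads in all.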
